A study of Mus musculus with 9 samples.

Results

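Fc receptors read antibody bound to a target and pass the signal to a short chain of kinases. Described here are 9 genes of that system in the infarcted mouse heart: the IgG receptors Fcgr1, Fcgr2b, Fcgr3 and Fcgr4, their signalling chain Fcer1g, the neonatal receptor Fcgrt, and the kinases Lyn, Syk and Btk. They were taken by gene symbol from a table of 24964 genes, and 9 of 9 were found. All 9 passed the filter on low counts, as did 14347 genes in all.

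Bulk RNA sequencing was done on total RNA of 9 hearts, from male C57BL/6JR mice aged 8 weeks. Ligation of the left anterior descending artery (LAD) under isoflurane gave 6 of them a myocardial infarction (MI), and these hearts were studied 28 d after MI (3 mice) or 7 d after it (3 mice). Sham surgery, in which the LAD was left untied, was done on 3 mice. No genotype, drug or antibody treatment is named in the labels, the tissue is given only as heart, so infarct and remote muscle cannot be told apart, and the time after surgery of the sham hearts is not given.

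Fcgr1, Fcgr3 and Fcgr4 encode activating receptors for IgG, and each needs the common γ chain encoded by Fcer1g, which carries an activation motif (ITAM). Fcgr2b encodes the inhibitory IgG receptor, whose tail carries an inhibitory motif (ITIM) in place of the ITAM. When IgG clusters the receptors, the Src family kinase Lyn phosphorylates these motifs, Syk binds to the phosphorylated ITAM, and the Tec family kinase Btk helps to switch on phospholipase C. Fcgrt encodes FcRn, which binds IgG in acidic endosomes and returns it to the cell surface or the blood. In the heart the activating receptors are known mainly from macrophages, which clear dead muscle after an infarction.

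At 7 d after MI all 9 genes stood above sham, most of all the receptor gene Fcgr4 and least the FcRn gene Fcgrt. At 28 d after MI 7 of 9 were still called above sham, Fcgrt and Lyn being the genes that missed the threshold, and all 9 were below their level at 7 d. In edgeR's quasi-likelihood test (adjusted p under 0.05, Benjamini-Hochberg over the 14347 genes), 9 of 9 rose at 7 d against sham, where 74.4% of all tested genes were called, 39.0% as higher and 35.4% as lower. For 28 d against sham 7 of 9 rose, where 55.1% were called, 29.5% as higher and 25.6% as lower. For 28 d against 7 d 9 of 9 fell, where 55.2% were called, 29.1% as higher and 26.1% as lower. The values of MI and sham hearts did not overlap for 9 of 9 genes at 7 d (80.8% of all tested genes) and 8 of 9 at 28 d (66.4%), and those of MI 28 d and MI 7 d hearts did not overlap for 9 of 9 (59.8%). The median log2 fold change of the 9 was 3.08 at 7 d against sham, 1.06 at 28 d against sham and -1.99 at 28 d against 7 d, and the medians over all tested genes were 0.06, 0.05 and 0.03. The comparisons share libraries: both comparisons with sham use the same 3 sham hearts, and the comparison of the infarct times uses the 6 MI hearts again.

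Library totals lay between 12351525 and 19238101 counts. Levels are in CPM, counts relative to the library total after TMM scaling, and errors of levels are SD over 3 hearts. The 3 MI 28 d hearts varied most among themselves and the 3 sham hearts least, with a biological coefficient of variation of 24.2% at 28 d, 17.0% at 7 d and 2.73% in sham. The edgeR fit gave each gene 1 spread for all 3 groups, so its SE and p-values take these spreads as equal. In 3 libraries the fat cell gene Adipoq exceeded 100 CPM (MI 28 d replicates 1 and 3 and MI 7 d replicate 3), and MI 28 d replicate 3 also had the highest macrophage marker sum of its group. Without these 3 libraries the counts of genes called were 9 of 9 at 7 d against sham, 6 of 9 at 28 d against sham and 9 of 9 at 28 d against 7 d, among 11114, 7058 and 7012 calls over all genes. That fit holds 1 MI 28 d and 2 MI 7 d hearts, and the lone heart is assumed to vary like the other groups. In bulk tissue, fewer cells of a type and less RNA per cell cannot be told apart.

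The activating receptors and their γ chain had the largest fold changes of the 9 genes at 7 d against sham. Fcgr1 encodes the high-affinity receptor, able to hold single IgG molecules. Fcgr1 stood at 10.5, 12.3 and 9.62 CPM in MI 28 d hearts, 60.5, 56.2 and 64.5 CPM in MI 7 d hearts and 4.80, 5.06 and 5.66 CPM in sham hearts. The groups did not overlap, and the 28 d hearts lay nearer to sham than to 7 d. Fcgr1 rose 11.7-fold at 7 d against sham (log2 fold change 3.54 ± 0.12 SE, edgeR adjusted p = 4.91e-08) and 2.08-fold at 28 d against sham (1.06 ± 0.12, edgeR adjusted p = 0.00016). It was 5.60-fold lower at 28 d than at 7 d (-2.48 ± 0.11, edgeR adjusted p = 6.71e-07).

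Fcgr3 encodes the low-affinity activating receptor that engages IgG in immune complexes, and natural killer cells and mast cells also carry it. Fcgr3 stood at 45.4, 50.3 and 63.2 CPM in MI 28 d hearts, 213, 177 and 239 CPM in MI 7 d hearts and 19.2, 23.6 and 23.8 CPM in sham hearts, with no overlap between groups. It rose 9.44-fold at 7 d (3.24 ± 0.16, edgeR adjusted p = 2.19e-07) and 2.38-fold at 28 d against sham (1.25 ± 0.16, edgeR adjusted p = 0.000216). Between the infarct times it was 3.96-fold lower at 28 d (-1.99 ± 0.15, edgeR adjusted p = 9.75e-06).

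Fcgr4, the receptor gene that mouse monocytes, macrophages and neutrophils use, had the largest rise of the 9 genes at both times. It stood at 8.30, 8.62 and 6.49 CPM in MI 28 d hearts, 50.2, 35.8 and 49.1 CPM in MI 7 d hearts and 1.83, 2.39 and 1.86 CPM in sham hearts. The sham values rest on 21 to 26 counts per library, and every MI heart lay above them. The rise was 22.2-fold at 7 d (4.47 ± 0.20, edgeR adjusted p = 1.19e-07) and 3.84-fold at 28 d against sham (1.94 ± 0.20, edgeR adjusted p = 9.34e-05). At 28 d Fcgr4 was 5.78-fold lower than at 7 d (-2.53 ± 0.17, edgeR adjusted p = 3.95e-06).

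Fcer1g, the γ chain gene shared by these receptors and by the mast cell receptor for IgE, stood at 30.3, 34.5 and 38.8 CPM in MI 28 d hearts, 173, 158 and 203 CPM in MI 7 d hearts and 15.9, 17.4 and 15.3 CPM in sham hearts. It rose 11.0-fold at 7 d (3.46 ± 0.13, edgeR adjusted p = 5.96e-08) and 2.14-fold at 28 d against sham (1.09 ± 0.12, edgeR adjusted p = 0.000137). At 28 d it was 5.15-fold lower than at 7 d (-2.36 ± 0.12, edgeR adjusted p = 1.11e-06). The log2 fold changes of Fcer1g, Fcgr1 and Fcgr3 thus lay between 3.24 and 3.54 at 7 d and between 1.06 and 1.25 at 28 d against sham.

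**Figure D1:**
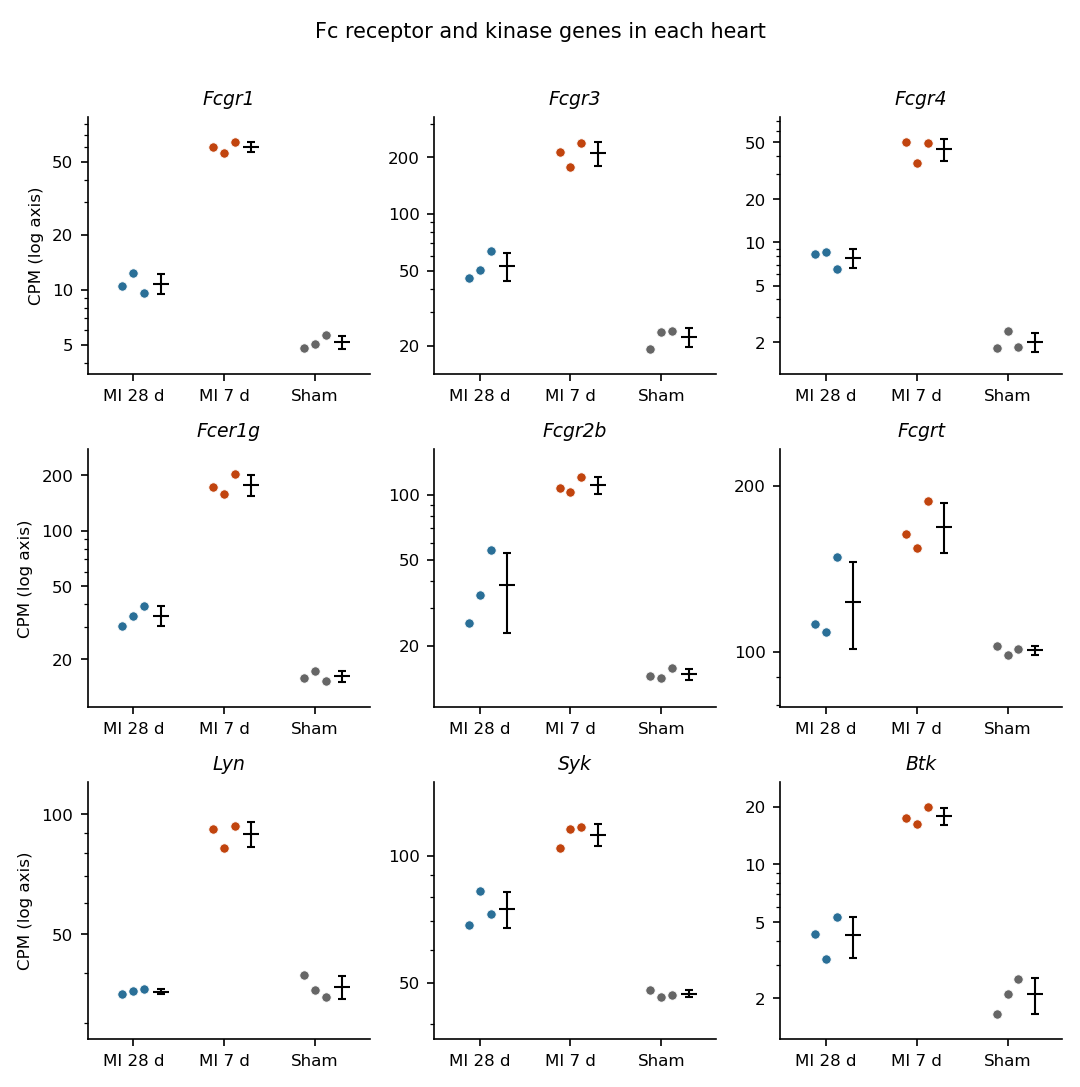
Level of each gene in each heart, in CPM on a log axis, with MI 28 d, MI 7 d and sham hearts from left to right in every panel; points are hearts and bars are the mean ± SD over 3 hearts. The MI 7 d hearts are the highest group in all 9 panels, and MI 28 d and sham hearts overlap in the Lyn panel only.

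The start regions of these genes are shown because the genes moved together. PU.1, a transcription factor of the myeloid lineage, binds around the letters GAGGAA, and STAT factors switched on by interferon bind around TTCNNNGAA (a GAS element). Both strands of the window from 250 bases before to 50 after each RefSeq start were searched for these letters. The RefSeq table lists windows for 8 of the 9 genes, Fcgr1, Fcgr2b, Fcgr3, Fcgr4, Fcer1g, Fcgrt, Syk and Btk. GAGGAA was found in 6 of their 10 windows and in 28.3% of 32851 windows of all genes. The 2 Fcgr3 windows overlap and hold the same site. By gene it was found in 5 of the 8, and no share by gene was counted over all genes. Fcgr2b and Fcer1g, which also rose at 7 d, had no GAGGAA in their windows, nor did Fcgrt. The windows printed below all hold a match. TTCNNNGAA was found in 1 of 10 windows, that of Fcgr1, and in 8.3% of all windows. Below are 150 bases of the windows of Fcgr1 (chr3:96293940-96294089, minus strand), Fcgr3 (chr1:171059374-171059523, minus strand), Fcgr4 (chr1:171018806-171018955, plus strand) and Btk (chrX:134583111-134583260, minus strand), from RefSeq on GRCm38.p6, written 5′ to 3′ on the gene's strand. Capitals mark the matches: TTCCTC is GAGGAA on the other strand, and the longer match in Fcgr1 is the GAS letters.
Fcgr1: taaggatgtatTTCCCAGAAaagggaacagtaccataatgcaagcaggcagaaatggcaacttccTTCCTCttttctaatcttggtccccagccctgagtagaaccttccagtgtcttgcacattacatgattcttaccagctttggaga
Fcgr3: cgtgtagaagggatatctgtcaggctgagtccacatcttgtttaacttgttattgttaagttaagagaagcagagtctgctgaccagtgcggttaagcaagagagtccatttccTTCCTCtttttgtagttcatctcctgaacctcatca
Fcgr4: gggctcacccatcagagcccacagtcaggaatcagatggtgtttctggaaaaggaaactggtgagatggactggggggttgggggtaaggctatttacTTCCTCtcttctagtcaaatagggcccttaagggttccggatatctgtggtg
Btk: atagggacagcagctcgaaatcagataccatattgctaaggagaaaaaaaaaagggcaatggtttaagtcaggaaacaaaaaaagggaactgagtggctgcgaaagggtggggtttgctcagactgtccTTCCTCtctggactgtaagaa
The GAGGAA matches lie 55 to 50 bases before the start in Fcgr1, 6 to 1 before it in Fcgr3, 22 to 17 before it in Fcgr4 and at bases 10 to 15 after it in Btk, counting the first transcribed base as 1, and the GAS letters of Fcgr1 lie 109 to 101 bases before its start. The fifth gene is Syk, with the letters 9 to 4 bases before its second listed start. A match of letters is not evidence of a bound factor, and binding was not measured.

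Fcgr2b is the only inhibitory receptor of the 9 genes. It stood at 25.4, 34.2 and 55.4 CPM in MI 28 d hearts, 107, 103 and 122 CPM in MI 7 d hearts and 14.6, 14.2 and 15.8 CPM in sham hearts. The groups did not overlap, but the 28 d hearts were spread widely, with replicate 3 highest. Fcgr2b rose 7.45-fold at 7 d (2.90 ± 0.25, edgeR adjusted p = 3.8e-06) and 2.59-fold at 28 d against sham (1.37 ± 0.24, edgeR adjusted p = 0.00125). Without MI 28 d replicate 3 its log2 fold change at 28 d against sham was 1.01 (edgeR adjusted p = 0.000234). At 28 d it was 2.88-fold lower than at 7 d (-1.53 ± 0.23, edgeR adjusted p = 0.00039).

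Fcgr2b and Fcgr3 are neighbours on chromosome 1 and share much of the sequence of their extracellular domains, so short reads can be hard to assign between them. On GRCm38 (GENCODE vM21 annotation) Fcgr2b spans chr1:170958617-170976547 and Fcgr3 chr1:171051174-171064935, both on the minus strand, with Fcgr4 between them at chr1:171018920-171029761 on the plus strand. Of 752 aligned coding bases 674 were identical (89.6%), and the longest identical run was 129 bases. The stretch around this run is printed from the coding transcripts, with the 5 bases that differ in capitals. It covers 189 bases and crosses an exon boundary, within chr1:170966644-170968111 for Fcgr2b and chr1:171054137-171057822 for Fcgr3.
Fcgr2b: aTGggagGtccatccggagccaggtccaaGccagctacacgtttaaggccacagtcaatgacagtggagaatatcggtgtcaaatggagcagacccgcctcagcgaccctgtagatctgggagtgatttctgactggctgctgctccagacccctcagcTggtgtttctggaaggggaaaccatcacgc
Fcgr3: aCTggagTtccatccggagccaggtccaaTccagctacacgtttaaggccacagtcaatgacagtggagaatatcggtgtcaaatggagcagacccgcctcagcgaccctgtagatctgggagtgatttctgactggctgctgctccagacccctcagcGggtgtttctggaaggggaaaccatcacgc
Over whole transcripts, 10.2% of the 50-base words of Fcgr3 also occur in Fcgr2b and 4.48% of those of Fcgr2b occur in Fcgr3, falling to 2.70% and 1.14% for 100-base words. Counting all other genes, Fcgr2b shared 6.72% of its 50-base words and 2.12% of its 100-base words. Fcgr1, Fcgr4, Fcer1g, Fcgrt, Syk and Btk shared 0 words of 50 bases with any other gene, and Lyn shared 15.7% with Gm11787. How reads that fit more than 1 gene were counted is not given in the sources used here, so the split between Fcgr2b and Fcgr3 carries this uncertainty. The strand setting is not given either, and an antisense gene, Gm38204, covers 2.68% of the exon bases of Fcgr2b, while Gm26857 on the other strand covers 6.09% of those of Lyn.

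Dividing counts within each library compares the inhibitory with the activating receptors free of library scaling. The ratio of Fcgr2b to Fcgr1 counts was 2.42, 2.79 and 5.77 in MI 28 d hearts, 1.77, 1.84 and 1.88 in MI 7 d hearts and 3.04, 2.80 and 2.79 in sham hearts. The ratio of Fcgr2b to Fcgr4 counts was 3.06, 3.97 and 8.54 in MI 28 d hearts, 2.14, 2.88 and 2.47 in MI 7 d hearts and 7.95, 5.92 and 8.50 in sham hearts. The ratio of Fcgr2b to Fcgr3 counts was 0.560, 0.681 and 0.877 in MI 28 d hearts, 0.503, 0.582 and 0.508 in MI 7 d hearts and 0.759, 0.599 and 0.663 in sham hearts. In each of the 3 ratios every MI 7 d heart lay below every sham heart.

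The log2 ratio at 7 d against sham differed by -0.65 for Fcgr2b over Fcgr1, -1.57 over Fcgr4 and -0.34 over Fcgr3. With 3 hearts in each group the exact permutation test cannot give a two-sided p below 0.1, which is the p of each of these differences, and over the family of 36 ratio comparisons the adjusted p was 0.18. Between the infarct times the ratio was higher at 28 d by 0.89 over Fcgr1 and 0.92 over Fcgr4, without overlap between groups (exact permutation p = 0.1 each), and by 0.39 over Fcgr3, where the groups overlapped (exact permutation p = 0.2). Without MI 28 d replicate 3 these differences were 0.51 over Fcgr1, 0.49 over Fcgr4 and 0.22 over Fcgr3. Between MI 28 d and sham hearts all 3 ratios overlapped, with differences of 0.24 over Fcgr1, -0.65 over Fcgr4 and 0.05 over Fcgr3 (exact permutation p = 1, 0.4 and 0.9). Without MI 28 d replicate 3 these differences were -0.14 over Fcgr1, -1.08 over Fcgr4 and -0.12 over Fcgr3, so that heart set the sign of the first and the last.

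**Figure D2:**
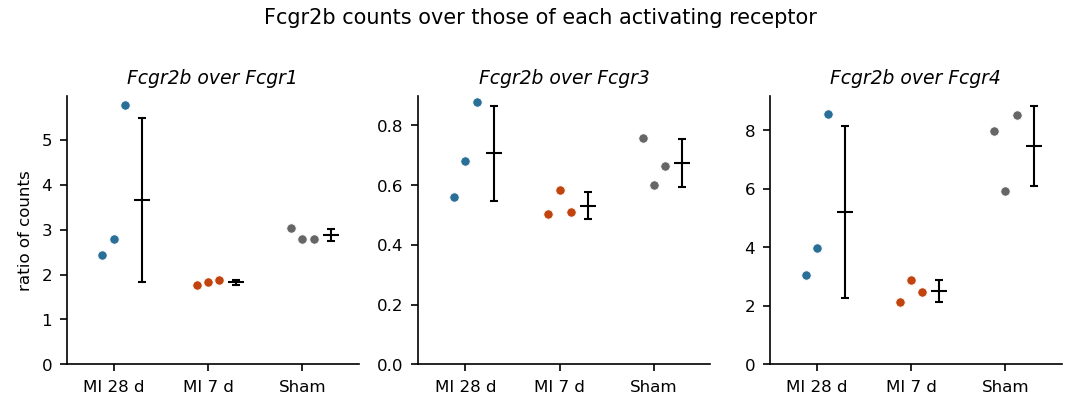
Counts of Fcgr2b divided by those of Fcgr1, Fcgr3 or Fcgr4 in the same heart, with MI 28 d, MI 7 d and sham hearts from left to right; points are hearts and bars are the mean ± SD over 3 hearts. In each panel the 3 MI 7 d hearts lie below the 3 sham hearts, and the highest MI 28 d point is replicate 3.

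Fcgrt, the FcRn gene, changed least at 7 d. It stood at 112, 109 and 149 CPM in MI 28 d hearts, 164, 154 and 188 CPM in MI 7 d hearts and 102, 98.6 and 101 CPM in sham hearts. It rose 1.67-fold at 7 d (0.74 ± 0.13, edgeR adjusted p = 0.000419) and was 1.37-fold lower at 28 d than at 7 d (-0.45 ± 0.12, edgeR adjusted p = 0.0122). In the comparison of 28 d with sham the 3 MI hearts lay above the 3 sham hearts, but the difference of 0.29 ± 0.13 missed the threshold (normal-based 95% interval 0.05 to 0.54, edgeR adjusted p = 0.0737). This call depended on the settings: Fcgrt passed when scaled by library size alone (0.55, edgeR adjusted p = 0.0106) and without MI 28 d replicate 2 (0.37, edgeR adjusted p = 0.0421), and without MI 28 d replicate 3 its log2 fold change was 0.14 (edgeR adjusted p = 0.258).

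FcRn works as a pair with β2-microglobulin, the light chain it shares with MHC class I. Of the light chain gene and 4 class I genes tested, 5 of 5 rose at 7 d and 5 of 5 at 28 d against sham, with median log2 fold changes of 1.74 and 1.35. B2m averaged 1156 ± 118 CPM in MI 28 d hearts, 1516 ± 275 CPM in MI 7 d hearts and 452 ± 18.5 CPM in sham hearts. Its log2 fold change was 1.74 ± 0.15 at 7 d (edgeR adjusted p = 3.35e-06) and 1.35 ± 0.14 at 28 d against sham (edgeR adjusted p = 0.000102), against 0.74 and 0.29 for Fcgrt. The class I genes H2-K1, H2-D1, H2-Q4 and H2-T23 had log2 fold changes of 2.09, 2.19, 1.30 and 1.53 at 7 d and 1.75, 1.43, 0.87 and 1.16 at 28 d against sham. Between the infarct times 4 of 5 fell, B2m by 0.39 and H2-D1 by 0.77 on the log2 scale, while H2-K1 did not pass (-0.35, edgeR adjusted p = 0.115). Class I genes resemble each other in sequence, so reads could be split among them, which was not examined here. H2-Q7, also on this list, had 0 counts in every library.

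Lyn, the Src family kinase that starts signalling at both activating and inhibitory motifs, stood at 35.4, 36.0 and 36.4 CPM in MI 28 d hearts, 91.8, 82.1 and 93.7 CPM in MI 7 d hearts and 39.5, 36.3 and 34.8 CPM in sham hearts. It rose 2.42-fold at 7 d (1.27 ± 0.08, edgeR adjusted p = 5.99e-07) and was 2.48-fold lower at 28 d than at 7 d (-1.31 ± 0.08, edgeR adjusted p = 2.26e-06). The 28 d hearts lay within the range of the sham hearts. Their difference of -0.04 ± 0.08 did not pass (edgeR adjusted p = 0.717), and its normal-based 95% interval ran from -0.19 to 0.12. With library size alone as the scaling the value was 0.21.

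Syk, the kinase that binds the phosphorylated ITAM, stood at 68.6, 82.7 and 72.8 CPM in MI 28 d hearts, 105, 116 and 117 CPM in MI 7 d hearts and 48.2, 46.3 and 46.9 CPM in sham hearts, with no overlap. It rose 2.38-fold at 7 d (1.25 ± 0.09, edgeR adjusted p = 1.04e-06) and 1.59-fold at 28 d against sham (0.66 ± 0.09, edgeR adjusted p = 0.000244). At 28 d Syk was 1.50-fold lower than at 7 d (-0.59 ± 0.08, edgeR adjusted p = 0.000282). Lyn and Syk thus had nearly equal fold changes at 7 d, while at 28 d Syk was called above sham and Lyn was not, a difference between the genes that was not tested.

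Btk, a kinase of B cells and myeloid cells, stood at 4.31, 3.23 and 5.33 CPM in MI 28 d hearts, 17.4, 16.2 and 19.9 CPM in MI 7 d hearts and 1.66, 2.12 and 2.54 CPM in sham hearts. It rose 8.45-fold at 7 d (3.08 ± 0.22, edgeR adjusted p = 1.42e-06) and 2.04-fold at 28 d against sham (1.03 ± 0.23, edgeR adjusted p = 0.00426). Its call at 28 d was lost without the 3 libraries rich in Adipoq, which leaves 1 heart at 28 d, assumed to vary like the other groups (0.60, edgeR adjusted p = 0.0824). At 28 d it was 4.15-fold lower than at 7 d (-2.05 ± 0.20, edgeR adjusted p = 3.69e-05).

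**Figure D3:**
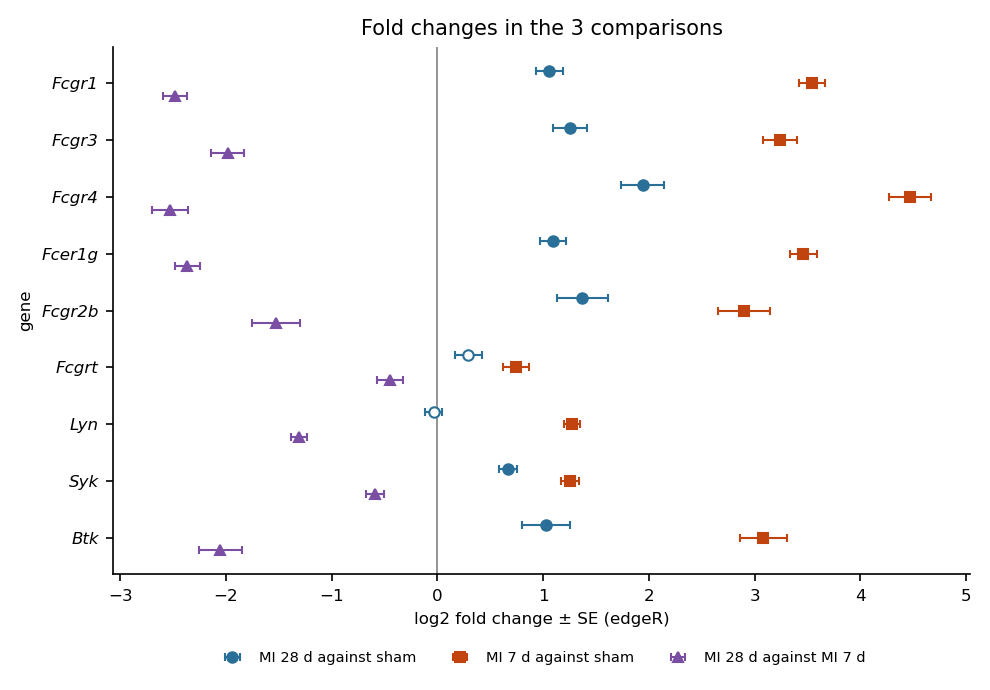
Log2 fold change of each gene ± SE in MI 28 d against sham (circles), MI 7 d against sham (squares) and MI 28 d against MI 7 d (triangles), with open symbols where the edgeR adjusted p was not under 0.05. All 9 squares lie right of 0 and all 9 triangles left of it, and the open circles are Fcgrt (0.29) and Lyn (-0.04).

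The order of the genes by level is given per kilobase of annotated exon. In MI 28 d hearts Fcgrt was highest at 58.6 ± 10.5 CPM per kilobase, followed by Fcer1g at 39.5 ± 4.86 and Fcgr3 at 30.5 ± 5.30, which overlapped. In MI 7 d hearts the order at the top was Fcer1g at 204 ± 26.2, Fcgr3 at 121 ± 17.9 and Fcgrt at 80.2 ± 8.32 CPM per kilobase, and these 3 did not overlap. In sham hearts Fcgrt led at 47.9 ± 0.929 CPM per kilobase, above Fcer1g at 18.5 ± 1.23 and Fcgr3 at 12.8 ± 1.51. FcRn thus headed the list in 28 d and sham hearts, and the γ chain and Fcgr3 passed it at 7 d.

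Below these came Fcgr4 at 35.9 ± 6.40 CPM per kilobase in MI 7 d hearts, followed by Fcgr1, Lyn and Fcgr2b, which overlapped in turn, then Syk and Btk. In MI 28 d hearts Lyn, Syk, Fcgr2b and Fcgr4 overlapped their neighbours in that order, and Fcgr1 and Btk lay below them. In sham hearts the order was Lyn, Syk, Fcgr2b, Fcgr1, Fcgr4 and Btk, and only Fcgr1 and Fcgr4 overlapped. Btk was last in every group, at 1.36 ± 0.334 in MI 28 d hearts, 5.67 ± 0.589 in MI 7 d hearts and 0.668 ± 0.139 CPM per kilobase in sham hearts. With the longest coding transcript as the length, an alternative chosen after seeing the data, the first 3 places and Btk's stayed as they were in each group, while Fcgr2b moved above Lyn in both MI groups.

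Markers of macrophages moved with these genes. The summed level of 12 macrophage markers (Lyz2, Cd68, Adgre1, Csf1r, the C1q genes and others) was 1108 to 1726 CPM in MI 28 d hearts, 5114 to 6233 CPM in MI 7 d hearts and 652 to 730 CPM in sham hearts. All 12 rose at 7 d against sham, and at 28 d against sham 9 rose and 1 fell (Cx3cr1, a chemokine receptor gene, log2 fold change -0.93). None of the 12 was at 0 in any group. Lyz2, the lysozyme gene that neutrophils also express, weighed most in the sum, at 415, 410 and 770 CPM in MI 28 d hearts, 2230, 2540 and 2896 CPM in MI 7 d hearts and 239, 271 and 257 CPM in sham hearts. Counts of each gene over the sum of these markers in the same heart are given next, and how far the number of macrophages accounts for the changes was not tested.

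Relative to the macrophage markers the 9 genes fell into groups at 7 d against sham. Fcgr4 was higher by 1.47 on the log2 scale, Fcgr1 by 0.55 and Fcer1g by 0.45, each without overlap (exact permutation p = 0.1, the smallest possible). Fcgr3 (0.24), Btk (0.10) and Fcgr2b (-0.10) overlapped with sham (exact permutation p = 0.2, 0.6 and 0.3). Fcgrt (-2.26), Syk (-1.75) and Lyn (-1.73) were lower, each without overlap (exact permutation p = 0.1). At 28 d against sham Fcgr4 (1.04), Fcgr2b (0.39) and Fcgr3 (0.34) were higher and Fcgrt (-0.63) and Lyn (-0.94) lower without overlap (exact permutation p = 0.1 each), and Fcgr1 (0.15), Fcer1g (0.18), Btk (0.11) and Syk (-0.25) overlapped with sham (exact permutation p = 0.6, 0.3, 0.6 and 0.4). Single hearts moved these last 4: leaving out 1 heart at a time gave -0.04 (without MI 28 d replicate 2) to 0.44 (without MI 28 d replicate 3) for Fcgr1 and 0.09 to 0.30 for Fcer1g, with the same hearts at the ends. It gave -0.41 (without MI 28 d replicate 2) to -0.02 (without MI 28 d replicate 3) for Syk and -0.02 (without MI 28 d replicate 1) to 0.26 (without sham replicate 3) for Btk. Fcgr4, though without overlap, moved as well, from 0.87 to 1.37. Its counts were 0.749, 0.755 and 0.376% of the marker counts in MI 28 d hearts and at most 0.328% in sham hearts. Over 5 markers without Lyz2 (C1qa, C1qb, C1qc, Adgre1 and Mertk) the 28 d values were 0.92 for Fcgr4, 0.28 for Fcgr2b, 0.23 for Fcgr3, 0.04 for Fcgr1 and 0.07 for Fcer1g. Over the 36 ratio comparisons no adjusted p was below 0.18.

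Between the infarct times the marker ratios of Fcgrt, Syk, Lyn and Fcgr2b were higher at 28 d than at 7 d by 1.63, 1.50, 0.79 and 0.49 on the log2 scale, each without overlap (exact permutation p = 0.1). Those of Fcgr1 (-0.40), Fcgr4 (-0.43), Fcer1g (-0.27), Fcgr3 (0.10) and Btk (0.01) overlapped (exact permutation p = 0.3, 0.4, 0.2, 0.5 and 0.9). MI 28 d replicate 3, the heart with the highest marker sum of its group, decided the size of several: without it the difference was -0.11 for Fcgr1 and -0.10 for Fcgr4.

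**Figure D4:**
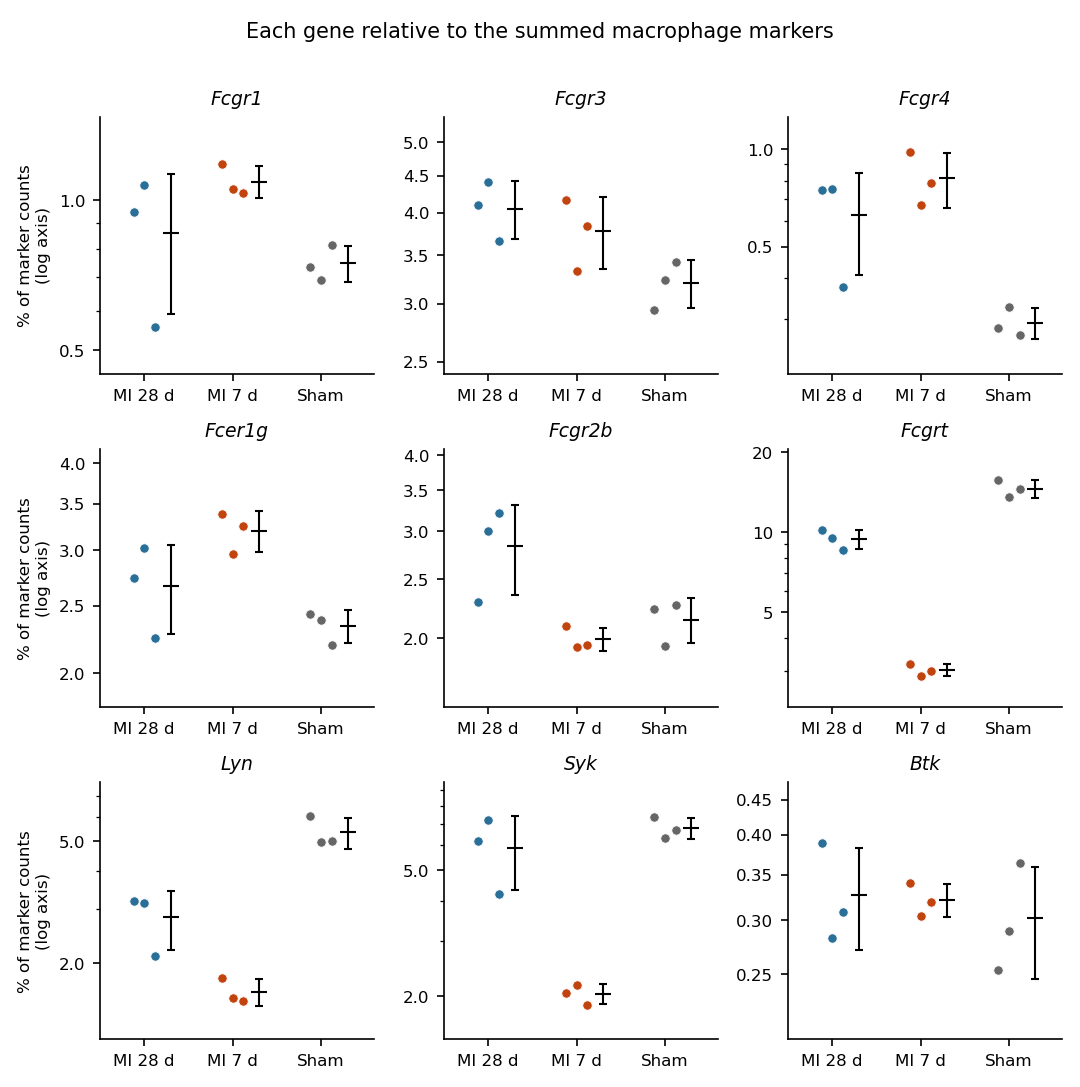
Counts of each gene as a percentage of the summed counts of 12 macrophage markers in the same heart, on a log axis, with MI 28 d, MI 7 d and sham hearts from left to right; points are hearts and bars are the mean ± SD over 3 hearts. The percentages of Fcgrt, Syk and Lyn are lowest in MI 7 d hearts, and those of Fcgr4 are lowest in sham hearts.

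Other cells can carry the same receptors. Neutrophils carry Fcgr3 and Fcgr4, and their 10 markers summed to 12.2 to 16.8 CPM in MI 28 d hearts, 54.5 to 113 CPM in MI 7 d hearts and 10.8 to 12.8 CPM in sham hearts. Of 7 neutrophil markers tested 5 rose at 7 d and 1 at 28 d against sham, with the defining marker Ly6g at 0 in MI 28 d hearts and Cxcr1 at 0 in MI 28 d and sham hearts. Csf3r weighed most in the 7 d sum, at 47.7 ± 7.53 CPM in MI 7 d and 4.04 ± 0.842 CPM in sham hearts. S100a9 stood at 25.2, 3.96 and 3.71 CPM in MI 7 d hearts, against 3.23 ± 0.236 CPM in sham hearts. S100a8, Cxcr2 and Retnlg were also highest in MI 7 d replicate 1. Mmp8 and Il1r2 lay above every sham heart in each MI 7 d heart. Ly6g had 4, 1 and 0 counts in MI 7 d hearts. Natural killer cells carry Fcgr3, and their 8 markers summed to 4.40 to 8.36 CPM in MI 28 d hearts, 17.3 to 30.4 CPM in MI 7 d hearts and 1.74 to 2.48 CPM in sham hearts, with 7 of 7 tested higher at 7 d and 2 at 28 d. The part of neutrophils and natural killer cells in the results was not tested.

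Mast cells carry Fcer1g, and 10 mast cell markers summed to 31.0 to 72.1 CPM in MI 28 d hearts, 30.0 to 36.2 CPM in MI 7 d hearts and 37.5 to 40.1 CPM in sham hearts. Of 7 tested, 1 rose at 7 d (Kit) and 1 at 28 d (Hdc) against sham, and Gata2, which endothelial cells also express, fell at both times. Hdc stood at 3.19, 4.09 and 39.0 CPM in MI 28 d hearts and 3.05, 2.85 and 3.13 CPM in sham hearts, so replicate 3 set its mean at 28 d. Gata2 averaged 11.4 ± 3.84 CPM in MI 28 d hearts, 6.94 ± 0.773 CPM in MI 7 d hearts and 21.5 ± 1.77 CPM in sham hearts, so it held most of the sham sum. Of the other markers Fcer1a, Ms4a2 and Tpsab1 were at 0 in sham hearts. Cpa3, Mcpt4, Cma1 and Tpsb2, also mast cell markers, were present there, with up to 11, 18, 11 and 6 counts per library. The 10 and 11 counts of Ms4a2 and Fcer1a in MI 28 d replicate 3 were the highest of any library, and the part of mast cells in the results was not tested. B cells carry Fcgr2b, Lyn, Syk and Btk, and their 9 markers summed to 20.8 to 22.5 CPM in MI 28 d hearts, 26.7 to 38.7 CPM in MI 7 d hearts and 11.3 to 12.8 CPM in sham hearts. Of these 9, 4 rose at 7 d and 5 at 28 d against sham, none was at 0 in any group, and their part was not tested.

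FcRn is also made by endothelial cells, whose 10 markers summed to 711 to 1413 CPM in MI 28 d hearts, 1088 to 1242 CPM in MI 7 d hearts and 2174 to 2281 CPM in sham hearts. Of these markers 5 of 10 fell at 7 d and 8 of 10 at 28 d against sham, and none rose. Fcgrt itself rose at 7 d, and the part of endothelial cells in the results was not tested. Platelets use Fcer1g and Syk for their collagen receptor, and 7 platelet markers summed to 24.4 to 32.5 CPM in MI 28 d hearts, 21.2 to 30.5 CPM in MI 7 d hearts and 25.6 to 28.8 CPM in sham hearts, 3 ranges that overlap. Of 5 platelet markers tested 3 rose and 1 fell at 7 d against sham and 2 rose and 1 fell at 28 d, and Gp6, part of that receptor, was at 0 in sham hearts. Gp1ba and Pf4 held most of the platelet sum and moved apart at 7 d. Gp1ba averaged 11.3 ± 2.96 CPM in MI 28 d, 5.21 ± 0.360 in MI 7 d and 15.7 ± 0.209 in sham hearts. Pf4 averaged 10.6 ± 3.96 CPM in MI 28 d, 15.5 ± 3.66 in MI 7 d and 9.30 ± 0.968 in sham hearts. The labelled tissue was matched by 10 cardiomyocyte markers, which summed to 43733 to 74550 CPM in MI 28 d hearts, 20141 to 25327 CPM in MI 7 d hearts and 125063 to 129106 CPM in sham hearts.

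The remaining Fc receptor genes were mostly at low counts, and 5 of 12 passed the filter. Of these 5, 4 rose at 7 d and 3 at 28 d against sham, and 3 fell at 28 d against 7 d. Fcrls, a mouse Fc receptor-like gene known from microglia, averaged 21.8 ± 3.24 CPM in MI 28 d hearts, 133 ± 11.6 CPM in MI 7 d hearts and 16.5 ± 0.699 CPM in sham hearts, with log2 fold changes of 3.01 at 7 d and 0.40 at 28 d against sham (edgeR adjusted p = 7.68e-08 and 0.0171). Fcrl1 had 6 to 10 counts per library in MI 28 d hearts, 135 to 149 in MI 7 d hearts and 2 in each sham heart, and it rose at 7 d (5.26 ± 0.29, edgeR adjusted p = 3.18e-07) and 28 d (1.46, edgeR adjusted p = 0.0265). Fcrla rose by 3.08 and 2.08. Trim21, a receptor for antibody inside the cell, rose by 0.41 at 7 d and did not pass at 28 d (0.29, edgeR adjusted p = 0.0676), and Fcer2a, the low-affinity IgE receptor gene, passed at neither time (0.29 and 0.06). Fcrla and Fcer2a also stand among the B cell markers.

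Other ITAM chains and the receptors that signal through them use the same kinases. Of 12 tested, 10 rose at 7 d (median log2 fold change 3.27), 7 rose and 1 fell at 28 d against sham (median 0.97), and 11 fell at 28 d against 7 d (median -2.49). Clec4d and Clec4e, lectin receptors that signal through the γ chain, rose by 5.85 and 4.61 on the log2 scale at 7 d and by 2.34 and 2.26 at 28 d. Trem2, a macrophage lipid receptor that signals through the related adaptor Tyrobp, averaged 13.0 ± 3.13 CPM in MI 28 d hearts, 148 ± 14.1 CPM in MI 7 d hearts and 3.84 ± 0.386 CPM in sham hearts. Cd247, the ζ chain of T cells and natural killer cells, was the 1 that fell at 28 d (-1.30 ± 0.24, edgeR adjusted p = 0.00142).

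Among 13 other kinases of the Src, Syk and Tec families, 8 rose and 2 fell both at 7 d and at 28 d against sham, with medians of 1.52 and 0.77. The myeloid Src kinase Fgr rose by 3.93 on the log2 scale at 7 d, against 1.27 for Lyn. Zap70, the T cell relative of Syk, rose by 3.27 at 7 d and 2.63 at 28 d, from counts that were low in sham hearts (0.231 ± 0.267 CPM). Src and the T cell kinase Lck rose by 1.76 and 1.92 at 28 d. The broadly expressed kinases Fyn and Yes1 fell by 0.38 and 0.21 on the log2 scale at 7 d and by 0.27 each at 28 d. Between the infarct times 6 fell, led by Fgr and Txk by 3.16 and 2.49, and 1 rose, Blk (1.28 ± 0.17, edgeR adjusted p = 0.00022).

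Adaptors and effectors below Syk mostly rose: 20 of 23 at 7 d and 17 of 23 at 28 d against sham, with 2 and 3 falling and medians of 2.55 and 0.86. The adaptor Lat2, the exchange factor Vav1 and the phosphoinositide 3-kinase subunit Pik3r5 rose by 3.98, 3.52 and 4.18 at 7 d. At 28 d the largest were Grap2, Pik3r5 and Lat at 1.88, 1.84 and 1.63. The falls were Rasgrp3, a Ras exchange factor, by 1.84 at 7 d and 1.43 at 28 d, the phospholipase gene Plcg1 by 0.58 at 7 d and 0.37 at 28 d, and Vav3 by 0.37 at 28 d. Between the infarct times 16 fell and 1 rose, Rasgrp3 (0.41).

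Inhibitory receptors and phosphatases, the group to which Fcgr2b belongs by role, rose in 17 of 22 cases at 7 d and 15 of 22 at 28 d against sham, with 4 and 2 falling and medians of 2.87 and 0.94. Cd300lf, an inhibitory myeloid receptor, averaged 1.24 ± 0.0741 CPM in MI 28 d hearts, 21.1 ± 0.727 CPM in MI 7 d hearts and 0.236 ± 0.137 CPM in sham hearts (6.45 ± 0.26 at 7 d against sham, edgeR adjusted p = 7.38e-08). Cd300a and Cd72 rose by 4.42 and 4.28 at 7 d, and Dok1 and Dok3, adaptors that damp kinase signals, by 2.24 and 1.47 at 28 d. The phosphatase Ptpn11 fell by 1.06 at 7 d, and Ceacam1 fell by 1.69 at 7 d and 1.16 at 28 d. Inpp5d, the inositol phosphatase that the ITIM of Fcgr2b recruits, averaged 26.2 ± 2.64 CPM in MI 28 d hearts, 101 ± 8.61 CPM in MI 7 d hearts and 17.2 ± 0.992 CPM in sham hearts. It rose at 7 d (2.55 ± 0.10, edgeR adjusted p = 7.47e-08) and at 28 d against sham (0.61 ± 0.10, edgeR adjusted p = 0.000921). Inpp5d was named for this link to Fcgr2b, outside the rule for named genes, after its values were seen.

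Phagocytosis and oxidase genes, which carry out engulfment after Fc receptor signalling, rose in 20 of 20 cases at 7 d and 19 of 20 at 28 d against sham, with medians of 2.90 and 0.97, and 20 of 20 fell at 28 d against 7 d. Myo1f, a myosin of immune cells, and the oxidase subunits Ncf1 and Ncf4 rose by 3.73, 3.65 and 3.44 at 7 d. At 28 d the largest were Fcho1, Ncf1 and Itgam at 1.96, 1.82 and 1.71. Itgam, a complement receptor subunit that is also among the macrophage markers, stood at 19.9, 17.4 and 64.7 CPM in MI 28 d hearts and 9.25, 11.95 and 10.1 CPM in sham hearts, so replicate 3 set its mean.

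**Figure D5:**
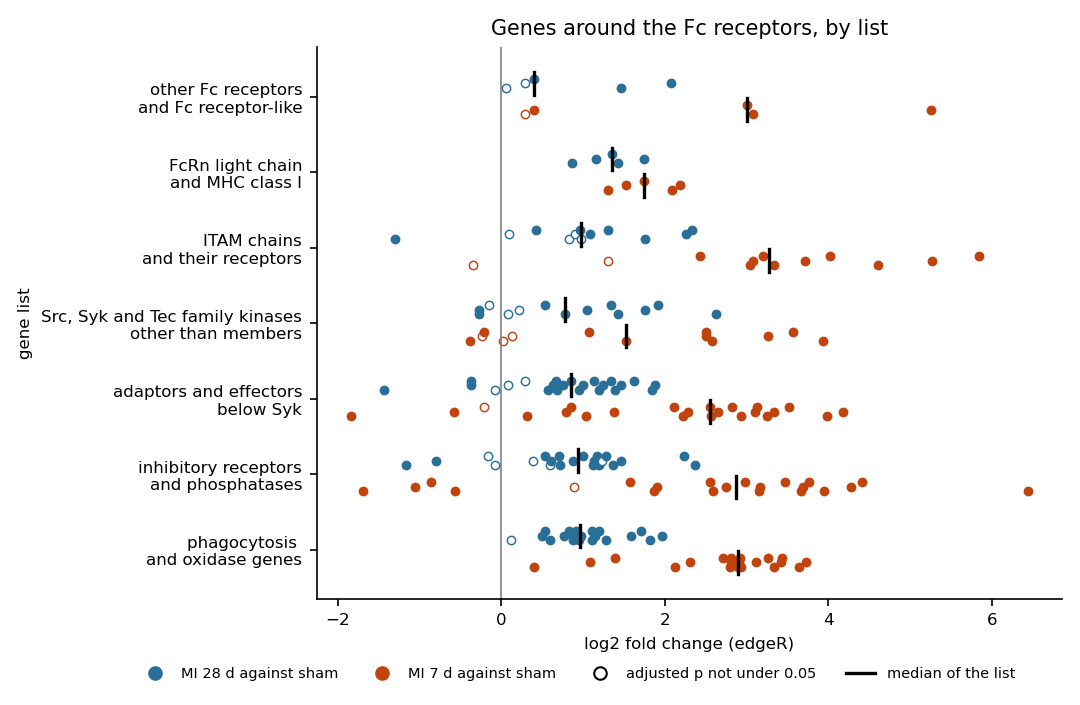
Log2 fold change of every tested gene in 7 lists around the Fc receptors, in MI 28 d (upper row of each list) and MI 7 d (lower row) against sham; open points did not pass (edgeR adjusted p) and black bars are list medians. The MI 7 d median lies right of the MI 28 d median in all 7 lists.

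Of 12 immunoglobulin constant and J chain genes only Jchain, made in plasma cells, was analysed here. The J chain joins units of IgM and IgA, not of IgG, the ligand of the receptors above. Jchain stood at 74.9, 9.49 and 88.1 CPM in MI 28 d hearts, 2.65, 55.3 and 42.7 CPM in MI 7 d hearts and 0.698, 1.01 and 0.930 CPM in sham hearts. Every MI heart was above every sham heart, with a wide spread among MI hearts, and Jchain rose at 7 d (5.24 ± 1.34, edgeR adjusted p = 0.0053) and at 28 d against sham (6.02 ± 1.33, edgeR adjusted p = 0.00414). The 2 infarct times overlapped and the difference did not pass (0.78 ± 0.89, edgeR adjusted p = 0.482).

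The genes most like Fcer1g, Fcgr2b and Fcgrt across the 6 MI hearts were ranked among 13588 genes by the root mean square difference of log2 CPM, each gene taken relative to its own sham mean. Nearest to Fcer1g were Cd53, Laptm5 and Itgb2 (0.10, 0.12 and 0.14). Nearest to Fcgr2b were Tmem106a, Aldh3b1 and Dse (0.14, 0.17 and 0.17). Nearest to Fcgrt were Zc3h12a, Snx2 and Cept1 (0.05, 0.07 and 0.07), a gene whose own changes were small. All these values come from the same 6 libraries, and the ranking is a description without a test.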

How the data were processed

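Per the labels' protocols, total RNA went into KAPA RNA HyperPrep libraries. The authors deposited whole-number read counts per gene symbol for the 9 hearts, not normalized. Trim Galore, STAR, featureCounts and the mm10 build are named in the submitters' processing notes, without versions. Not given in the sources used here: annotation, strand setting and handling of multiply mapped reads.

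The counts were analysed in R 4.3.3 with edgeR 4.0.16. Genes passed filterByExpr by group (minimum count 10, minimum total 15) and were scaled by TMM (factors 0.869 to 1.13). One model with the 3 group means took in all 9 libraries, and edgeR's quasi-likelihood F test (two-sided) was adjusted by Benjamini-Hochberg over 14347 genes, with a threshold of 0.05. The model assumes that a gene has an equal spread in the 3 groups. "Rose" and "fell" refer to this threshold. SE values are |log2 fold change| divided by √F. edgeR keeps a p-value from falling below that of a Poisson test, which raised that of Fcrl1 at 28 d against sham, so no SE is given there. Within-library ratios used log2 of count ratios and the exact two-sided permutation test. Groups came from the sample titles and the replicates are separate mice. Chi-square per degree of freedom was 1.64 to 1.76 between sham libraries and 17.9 to 67.4 between MI libraries of a group, so no libraries were merged.

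The 9 genes, the gene lists and the rule for named genes were chosen with earlier results of these data known. The rule names all 9 genes, up to 3 list members with the largest rise and up to 2 with the largest fall, and every member of a list with 5 or fewer tested. Not every gene that the rule names is reported here. The 3 genes nearest to Fcer1g, Fcgr2b and Fcgrt were ranked with a prior count of 2, leaving out clone-type symbols. Sequences came from RefSeq promoter windows (GRCm38.p6) and GENCODE vM21 transcripts, aligned with Biopython 1.88. On simulated counts for 14347 genes the test recovered 76% of 2-fold and 93% of 4-fold changes at 7 d against sham, 61% and 87% at 28 d against sham, and 61% and 96% at 28 d against 7 d, with 9, 9 and 18 false calls. Each fold was given to 100 genes, and all groups were drawn with the same spread per gene. In the data most genes were called and the spread differed between groups. These rates therefore do not describe the test on the data themselves. Alternatives were DESeq2 1.42.0, limma 3.58.1 voom with group weights, other scalings and filters, a 2-fold threshold, the replicate number as a block, and leaving out libraries.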

Additional observations from a re-analysis of the deposited data

Results flagged for a closer look

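The difference from sham was tested for a change between the infarct times, and it was smaller at 28 d than at 7 d for all 9 genes by edgeR's quasi-likelihood test. On the log2 scale the difference at 28 d minus that at 7 d was -2.53 for Fcgr4, -2.48 for Fcgr1, -2.36 for Fcer1g, -2.05 for Btk, -1.99 for Fcgr3, -1.53 for Fcgr2b, -1.31 for Lyn, -0.59 for Syk and -0.45 for Fcgrt. Because both use the same sham hearts, these values equal the comparison of 28 d with 7 d.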

How the results depend on the processing

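All 9 genes were called at 7 d against sham and at 28 d against 7 d under every alternative except the added 2-fold threshold, which left 8 (Fcgrt lost) and 7 (Fcgrt and Syk lost). At 28 d against sham 7 were called, with 6 under the 2-fold threshold (Syk lost as well) and 6 without the Adipoq-rich libraries, an alternative chosen after seeing the data. Leaving out each library in turn gave 9 to 9, 7 to 8 and 9 to 9 calls. Over all genes the 2-fold threshold left 5844, 3038 and 2998 calls of 10676, 7906 and 7920. At 28 d against sham Fcgrt also passed with limma voom (0.28, adjusted p = 0.0437) and with the replicate number as a block (0.28, edgeR adjusted p = 0.0439), and its adjusted p ran from 0.0106 to 0.391 over 18 alternatives. Same-numbered libraries had correlations of -0.09 to 0.30, so the numbers were not taken as pairs, and the block gave 9, 8 and 9 calls. Library size alone moved the median log2 fold change of all genes by 0.33 at 7 d and 0.25 at 28 d against sham and by -0.08 at 28 d against 7 d, and the share of calls that were higher was 67.4%, 74.0% and 45.5%, against 52.5%, 53.5% and 52.7%. The ratio difference of Fcgr2b over Fcgr1 at 7 d was -0.58 with a pseudocount of 5 (-0.65 without), and that of Fcgrt over macrophage markers at 28 d against 7 d was 1.50 with 5 markers (1.63 with 12). The cause was not tested. Depth limits Fcgr4 and Btk in sham hearts most, where counts were lowest.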
